A study of Mus musculus with 12 samples.

Results

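The genes described here are 6 lipid genes known as targets of the nuclear receptors PPAR and LXR: Cpt1a, Fabp4, Angptl4, Lpcat3, Apoe and Apoc4. They were taken by gene name from 2 tables of mammary tumor RNA, which together list 2876 genes. Per-tumor values were used for the 3 members in the V-125 table (Cpt1a, Lpcat3 and Apoc4), and group means for the 5 members in the bexarotene table (all but Apoc4), so that 2 members, Cpt1a and Lpcat3, appear in both. All 12 tumors came from female MMTV-neu mice, in which the mouse mammary tumor virus promoter drives the Neu (HER2) oncogene in mammary epithelium, and each of the 3 groups held 4 tumors. Mice received powdered chow with vehicle (ethanol and a coconut oil) alone as control, or the same chow carrying V-125 or bexarotene at 100 mg/kg diet, for 10 days. Both compounds are rexinoids, agonists of the retinoid X receptor RXR, and the age of the mice is not given in the sources used here. The members and the gene lists used below were chosen with earlier results of these data known.

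RXR works by pairing with a second nuclear receptor on DNA. With PPAR and with LXR it forms permissive heterodimers, which can be switched on by a ligand of either partner, so that a rexinoid can reach the target genes of both. PPAR is a sensor of fatty acids and controls genes of fatty acid oxidation, transport and storage, whereas LXR is a sensor of oxysterols and controls genes of cholesterol export, lipoproteins and fatty acid synthesis. Among the members, Cpt1a encodes the carnitine palmitoyltransferase that admits long-chain fatty acids to mitochondria, Fabp4 the fatty acid chaperone of adipocytes and macrophages, and Angptl4 a secreted inhibitor of lipoprotein lipase. Lpcat3 encodes the enzyme that places polyunsaturated fatty acids into phospholipids, and Apoe and Apoc4 encode apolipoproteins of one gene cluster.

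In GENCODE M21 (GRCm38), Cpt1a lies on the plus strand of chromosome 19 at 3322334 to 3385733, Lpcat3 on the plus strand of chromosome 6 at 124663027 to 124704418, Fabp4 on the minus strand of chromosome 3 at 10204088 to 10208576 and Angptl4 on the minus strand of chromosome 17 at 33773750 to 33781830. Apoc4 (7:19678083 to 19681479) and Apoe (7:19696109 to 19699188) lie on the minus strand of chromosome 7, 14629 bp apart, with Apoc1 between them, and Apoc2 ends 141 bp from Apoc4. Reads could not be assigned to 1 gene alone in the 119 exonic bases that Apoc4 shares with the same-strand gene Gm44805, and 334 exonic bases of Lpcat3 overlap Emg1 on the opposite strand. Both receptor pairs read the motif AGGTCA, PPAR with RXR as a direct repeat spaced by 1 base (AGGTCANAGGTCA) and LXR with RXR as one spaced by 4 bases (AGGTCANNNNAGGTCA). RefSeq promoter windows (GRCm38.p6, 250 bases before to 50 after the gene start) were available for 4 of the 6 members. The part of each window that lies before the RefSeq start and holds no base of an exon annotated in GENCODE M21 is shown for Cpt1a (chr19:3323051-3323284, plus strand), Lpcat3 (chr6:124662854-124663026, plus strand) and Apoc4 (chr7:19681480-19681710, minus strand), the members with a value in each tumor, and for Apoe (chr7:19699189-19699438, minus strand), the neighbour of Apoc4. The Cpt1a stretch lies inside the GENCODE span of the gene, whose first annotated start is farther upstream at 3322334. Capitals mark AGGTCA or its reverse complement.
Cpt1a: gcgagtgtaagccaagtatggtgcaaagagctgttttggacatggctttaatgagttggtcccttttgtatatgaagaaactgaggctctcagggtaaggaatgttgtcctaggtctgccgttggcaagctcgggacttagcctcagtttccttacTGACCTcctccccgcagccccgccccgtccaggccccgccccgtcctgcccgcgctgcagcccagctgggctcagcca
Lpcat3: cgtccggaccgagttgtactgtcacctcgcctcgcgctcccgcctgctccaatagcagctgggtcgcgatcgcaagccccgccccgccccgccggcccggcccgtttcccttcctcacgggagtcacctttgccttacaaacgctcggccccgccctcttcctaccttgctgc
Apoc4: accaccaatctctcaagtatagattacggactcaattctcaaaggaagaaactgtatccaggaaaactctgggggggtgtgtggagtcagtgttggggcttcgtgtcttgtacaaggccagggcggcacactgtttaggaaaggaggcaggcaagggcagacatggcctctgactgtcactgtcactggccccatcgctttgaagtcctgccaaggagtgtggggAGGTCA
Apoe: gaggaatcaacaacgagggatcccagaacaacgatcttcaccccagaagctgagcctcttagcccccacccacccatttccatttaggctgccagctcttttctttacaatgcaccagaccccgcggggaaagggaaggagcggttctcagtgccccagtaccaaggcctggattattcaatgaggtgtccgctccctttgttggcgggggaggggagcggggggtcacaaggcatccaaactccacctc
The single motif was found on either strand in the whole windows of Cpt1a (first base at −94 from the RefSeq start, reverse strand) and Apoc4 (at −25, forward strand), and in no window of Lpcat3 or Apoe. It occurs in 16.3% of all 32851 RefSeq promoter windows of this length, so a match in a window is common. Neither repeat occurred in a window of these 4 genes. Over all windows the repeat spaced by 1 base was found in 0.0396% and the repeat spaced by 4 bases in 0.0152%. Each repeat holds the single motif, so the counts overlap, and the letters alone say nothing of receptor binding.

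Reads counted on genes ranged from 15571690 to 22574865 in the 8 V-125 and control tumors. Values are normalized counts, which are reads divided by 1 size factor per tumor, unless FPKM (reads scaled to gene length and library total) is named. The luminal epithelium marker Epcam was high in every one of these tumors, between 28485 and 53468 normalized counts. Each table holds only genes with an unadjusted p below 0.05 in its own comparison, and listing with a usable adjusted p-value covers 8.95% of the genes tested for V-125 and 9.36% of those tested for bexarotene. A listed gene was thus selected for differing from control, and a test on the same tumors is a description of the size and spread of that difference, not independent evidence of it. No per-tumor values of bexarotene-treated tumors were used, so its group means have no error and no test.

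Cpt1a, the gate of mitochondrial fatty acid oxidation, was higher in V-125-treated tumors. The 4 V-125-treated tumors held 1009, 1230.1, 940.3 and 921 normalized counts, and the 4 control tumors 311, 747, 815 and 618. Every treated tumor lay above every control tumor, and control replicate 1 was the lowest of the 8. The means were 1025 ± 142 and 623 ± 223 (SD, n = 4 each), a 1.65-fold ratio, or 13.2 ± 1.79 against 8.03 ± 2.87 FPKM. An exact permutation test over the 70 assignments of 8 tumors gave a two-sided p of 0.0286, the smallest this design allows, and 38.6% of the 1589 listed genes had groups that did not overlap. edgeR's quasi-likelihood test gave a log2 fold change of 0.72 (SE 0.27) with an unadjusted p of 0.0258, a level reached by 71.5% of the 1333 fitted genes in the table. The Benjamini-Hochberg adjusted p, taken over all 15310 genes that the table's p-values imply were tested, was 0.764. No gene was called at an adjusted p below 0.05 by edgeR (0.0% of the fitted genes, against 953 genes at an unadjusted p below 0.05), and none by limma-voom, while DESeq2 called 124. Leaving out V-125 replicate 2 or control replicate 4 took the edgeR unadjusted p of Cpt1a to 0.0715 and 0.0531.

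Lpcat3, the phospholipid-remodeling target of LXR, showed the tighter difference. Its normalized counts were 1494, 1669, 2156 and 1926 in V-125-treated tumors and 1194, 1195, 1348 and 1086 in control tumors. The groups did not overlap, and the lowest treated tumor (replicate 1) stood above the highest control tumor (replicate 3). The mean was 1811 ± 290.2 with V-125 and 1206 ± 108 in control (SD, n = 4 each), a 1.502-fold ratio with an exact permutation p of 0.0286, and on the FPKM scale 30.7 ± 4.80 against 20.5 ± 1.85. The edgeR log2 fold change was 0.59 (SE 0.15), with an unadjusted p of 0.00377 and an adjusted p of 0.526. Per length, on the FPKM scale, the level of Lpcat3 mRNA was above that of Cpt1a mRNA in both groups. Cell type markers differed beside both genes. Listed luminal epithelium markers were 6 of 12, beside 8.95% of all tested genes, and all were lower with V-125. Their summed levels were 104495 to 161998 normalized counts in treated and 172067 to 381311 in control tumors. Much of these sums was 1 gene, Wfdc18, at 59443 to 108447 in treated and 109814 to 295732 in control tumors. Listed endothelial markers were 4 of 12 (33.3%, beside 8.95% of all tested genes), all higher, with summed levels of 2189 to 2636 against 1404 to 1656. Groups were apart in 3 of the 6 luminal and 2 of the 4 endothelial markers, beside 38.6% of all listed genes. All of these markers were listed for differing from control. The part of these cell types in the Cpt1a and Lpcat3 results was not tested, and in bulk tumors fewer cells of a type and less RNA per cell cannot be told apart.

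Apoc4, a minor apolipoprotein of very-low-density lipoproteins, was near the limit of detection. It had 67, 17, 12 and 0 reads in the V-125-treated tumors and 0, 2, 0 and 0 reads in the control tumors, or 68.5, 16.1, 11.9 and 0 against 0, 2.31, 0 and 0 normalized counts. V-125 replicate 1 alone carried most of the reads, V-125 replicate 4 had none, and the groups overlapped. The means of 24.1 ± 30.3 and 0.578 ± 1.16 normalized counts (SD, n = 4 each) were not separated by an exact permutation test (two-sided p = 0.143), and Apoc4 fell below the read minimum of the edgeR fit. The summed reads, 96 against 2, gave a ratio of 50.1 per size factor with a 95% interval of 13.5 to 419, which covers counting error only and not the spread between tumors. Without V-125 replicate 1 the treated mean was 9.35 ± 8.37 (SD, n = 3) and the exact permutation p remained 0.143. Without V-125 replicate 4 that p was 0.0286.

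**Figure D1:**
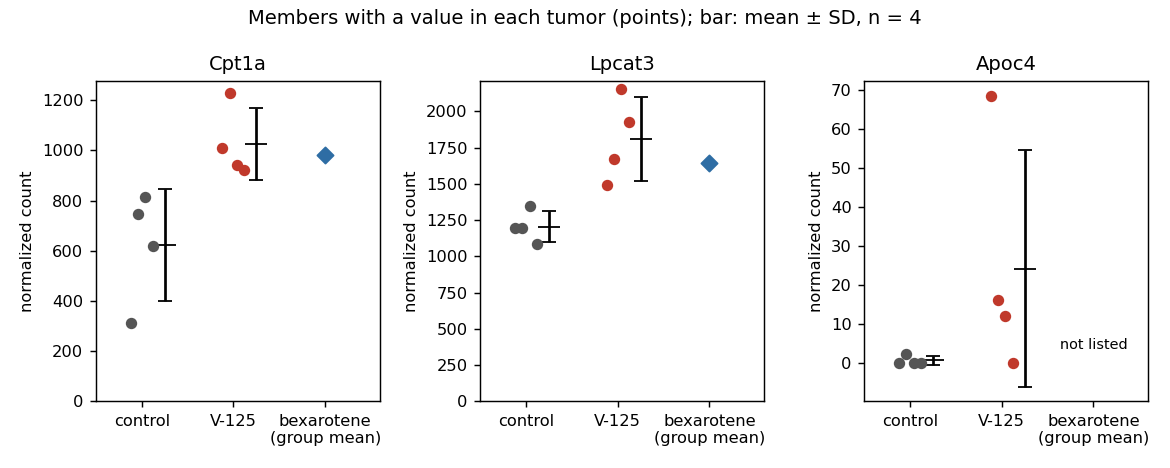
Normalized counts of Cpt1a, Lpcat3 and Apoc4 (vertical axes, separate scales) in each control (grey) and V-125-treated (red) tumor, with the mean ± SD of 4 tumors as black bars and the bexarotene group mean as a blue diamond. Cpt1a and Lpcat3 do not overlap between control and V-125, whereas the Apoc4 mean of 24.1 rests largely on V-125 replicate 1 at 68.5.

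The order of the V-125-treated tumors by Apoc4 recurred in some other lipid and receptor genes, given here as a description. The count covers 3 of the 6 lipid and receptor lists and leaves out PPAR targets, member families and the feedback and uptake genes. In the lists left out, Lipe alone had this order (608, 501, 459 and 454 normalized counts), so the share over all 6 lists is lower. Of the 15 other listed LXR targets, apolipoproteins and receptors, 4 placed the 4 V-125-treated tumors in the same order as Apoc4, against 124 of the 1588 other listed genes (7.81%). These were Apod, an apolipoprotein of the lipocalin family, Pltp, the phospholipid transfer protein, Tnfaip2, and Mertk, a receptor for apoptotic cells on macrophages. In V-125 replicate 1 they reached 691, 982, 560.0 and 438 normalized counts, respectively, while the other V-125-treated tumors lay at 6.35 to 238 for Apod, 26.4 to 128 for Pltp, 205 to 252 for Tnfaip2 and 171 to 256 for Mertk. Rxrg, which encodes the gamma form of RXR itself, had 24 and 5 reads in V-125 replicates 1 and 2 and none in the other 6 tumors. With the control group set at an assumed floor of 3 counts, the ratio of its summed levels, V-125 over control, had a lower bound of 10.1. That bound has no error for the spread between tumors and rests mostly on V-125 replicate 1. None of the 6 genes passed the exact permutation test with all tumors (p = 0.0571 for Apod, 0.0857 for Mertk, 0.143 for Apoc4, 0.2 for Tnfaip2, 0.343 for Pltp and 0.429 for Rxrg).

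V-125 replicate 1 was the highest of the V-125-treated tumors in 38.3% of all listed genes and in 48.1% of those with a higher mean with V-125, so its place in these genes is common in the table, and the genes were chosen after their values were seen. Some listed markers of immune cells were high in the same tumor, and unlisted markers have no value here. These genes were listed for differing from control, a comparison that includes this tumor. The macrophage marker Fcgr1 stood at 501 normalized counts in V-125 replicate 1 and at 100.5 to 130.1 in the other treated tumors, against a control mean of 106 ± 38.3 (SD, n = 4). The T cell genes Cd2 and Cd28 were at 195 and 65.4 in that tumor, and at most at 23.8 and 5.96 in the other treated tumors. Over the whole lists, 3 of 16 macrophage markers (Fcgr1, Itgam and Mertk, the last also an LXR target) and 2 of 12 T cell markers were listed for V-125. Counting genes with a usable adjusted p, the shares were 18.8% and 8.33%, beside 8.95% of all tested genes. The summed levels of the listed macrophage and T cell markers were 971 and 261 normalized counts in V-125 replicate 1. They ranged from 302 to 415 and 3.17 to 29.8 in the other treated tumors, and from 276 to 398 and 0 to 6.39 in control tumors. The macrophage marker Itgam went the other way, at 30.7 to 60.6 in treated and 65.5 to 89.0 in control tumors. In V-125 replicate 1 Itgam was at 31.7. The part of these cell types in the Apoc4 result was not tested.

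**Figure D2:**
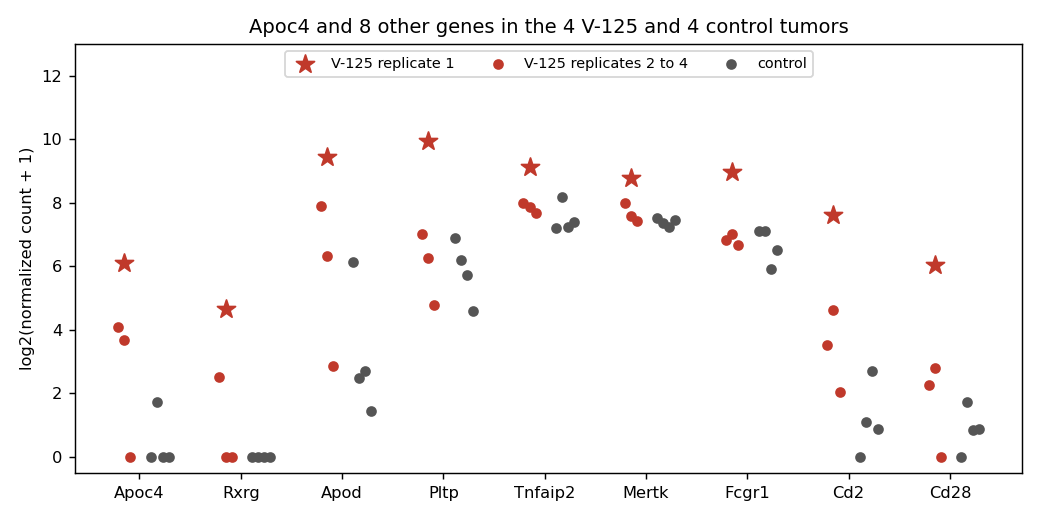
The vertical axis gives log2(normalized count + 1) of Apoc4, 5 lipid or receptor genes, the macrophage marker Fcgr1 and the T cell genes Cd2 and Cd28, with 1 point for each of the 4 V-125 (red, replicate 1 as a star) and 4 control (grey) tumors. The star is the highest of the 8 points for each of these 9 genes, which were chosen after their values were seen, with Apoc4 at 68.5 and Pltp at 982 normalized counts.

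Bexarotene-treated tumors had higher group means of Cpt1a, Lpcat3 and Fabp4, and lower group means of Angptl4 and Apoe, than control. For Cpt1a the means were 982 and 619 normalized counts, a log2 ratio of 0.67, and for Lpcat3 they were 1643 and 1199, a log2 ratio of 0.45. Fabp4 was at 530.2 with bexarotene against 157 in control, 3.37-fold higher. Angptl4, a gene induced both by PPAR and by low oxygen, was at 46.4 against 241, which is 5.20-fold higher in control than with bexarotene. Apoe, a lipid carrier of lipoproteins, was at 13435 against 24585, 1.83-fold higher in control. Fabp4 and Angptl4 were the 2 of 5 members past a 2-fold ratio, as were 42.2% of the 1709 listed genes with both means above 0, so a ratio of this size was common in the table.

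Since V-125 and bexarotene were set against the same control tumors, their values are given side by side and the difference between the compounds was not tested. For Cpt1a the log2 ratio of means to control was 0.72 with V-125 and 0.67 with bexarotene, and for Lpcat3 it was 0.59 and 0.45. The bexarotene mean of Cpt1a exceeded 2 of the 4 V-125-treated tumors and all 4 control tumors, and that of Lpcat3 exceeded 1 of the 4 V-125-treated tumors and all 4 control tumors. Fabp4, Angptl4 and Apoe were not listed for V-125 and Apoc4 was not listed for bexarotene, which gives no value for them there and does not show that they were unaffected.

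**Figure D3:**
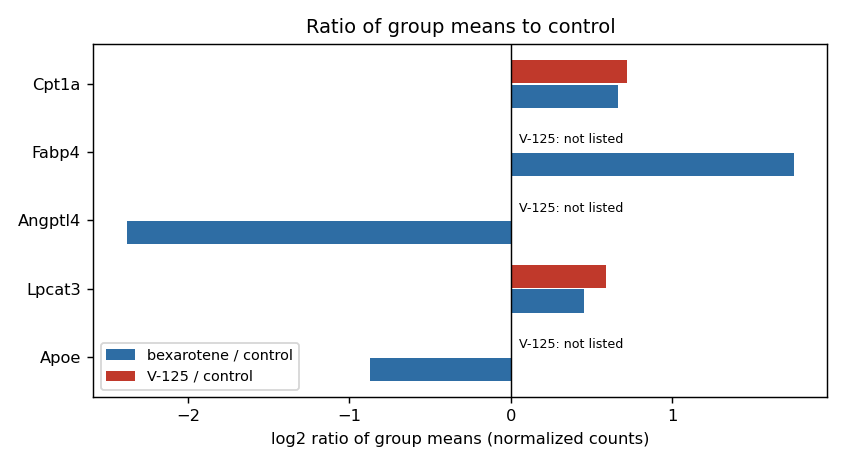
Horizontal bars give the log2 ratio of the treated to the control group mean of normalized counts for 5 members, with V-125 in red and bexarotene in blue, and "not listed" where the V-125 table holds no row. Cpt1a (0.72 and 0.67) and Lpcat3 (0.59 and 0.45) have bars to the right of 0 for both compounds, and Angptl4 has the longest bar, at −2.38 with bexarotene.

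Targets of PPAR were listed for V-125 in 9 of 50 cases, Cpt1a included, 8 of them with a higher mean than control. All 7 that could be fitted had an unadjusted edgeR p below 0.05 (71.5% of all fitted listed genes did) and 4 of the 9 had groups that did not overlap (38.6% of all listed genes did not), so neither share stands out as a result about this list. The median log2 ratio was 0.72, against 0.36 over all listed genes, of which 817 were higher and 772 lower. The median over all listed genes thus mixes both directions, and the gap reflects direction as well as size. Fabp5, the epidermal fatty acid chaperone and a relative of Fabp4, was at 1523, 1216, 1631 and 2380.3 normalized counts in treated tumors and at 325, 373, 995 and 508 in control tumors, a 3.07-fold ratio of means without overlap. Ehhadh, a peroxisomal enzyme of fatty acid oxidation, also did not overlap, at 678 to 889 against 329 to 656. Pex11a, a factor of peroxisome division, had a mean of 1040.0 ± 140 against 632 ± 222 (SD, n = 4 each) with 1 control tumor inside the treated range. The acyl-CoA thioesterases Acot1 and Acot2, at 1.74-fold and 1.62-fold, overlapped between groups, and as near-identical neighbours they may share reads. Ucp3 and Plin5 had few reads, Ucp3 at 86.4 normalized counts in V-125 replicate 2 and at most 13.3 in any other tumor, and Plin5 at 0 to 4.97 in treated and 2.31 to 29.6 in control tumors.

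LXR targets were listed for V-125 in 11 of 34 cases, Lpcat3 and Apoc4 included, all with a higher mean than control. Of the 10 that could be fitted, 6 had an unadjusted edgeR p below 0.05, and 6 of the 11 had groups that did not overlap, beside 71.5% and 38.6% over all fitted and all listed genes. The share with a low unadjusted p was thus below that of the table. The median log2 ratio was 1.10, against 0.36 over all listed genes, of which 817 were higher and 772 lower. As for the PPAR list, this gap reflects direction as well as size. The enzymes of fatty acid synthesis and desaturation, which are also targets of SREBP-1, made up most of the 6. Scd1, the stearoyl-CoA desaturase, was at 181716, 107313, 212914 and 128970 (V-125) against 88995, 31481, 11716 and 47011 (control) normalized counts, a log2 fold change of 1.82 (SE 0.53) by edgeR. Fasn, the fatty acid synthase, was at 12988, 20694, 19041 and 21867 against 11193, 6350, 8279 and 9473, a log2 fold change of 1.08 (SE 0.23). Acaca, which encodes acetyl-CoA carboxylase, had a ratio of means of 1.99 and Scd2, a desaturase related to Scd1, one of 2.15, and both were without overlap. Pnpla3, a lipid droplet hydrolase, was low, at 20.9 to 34.7 in treated and 0 to 17.6 in control tumors. Abcg4, a sterol exporter, ranged from 46.7 to 80.4 in treated and from 10.4 to 63.1 in control tumors, so its groups overlapped. Neither list reached an adjusted p below 0.05 for any gene with edgeR. With a usable adjusted p, 16.0% of the PPAR list and 32.4% of the LXR list were listed for V-125, beside 8.95% of all tested genes, and the lists were chosen with these tables known.

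**Figure D4:**
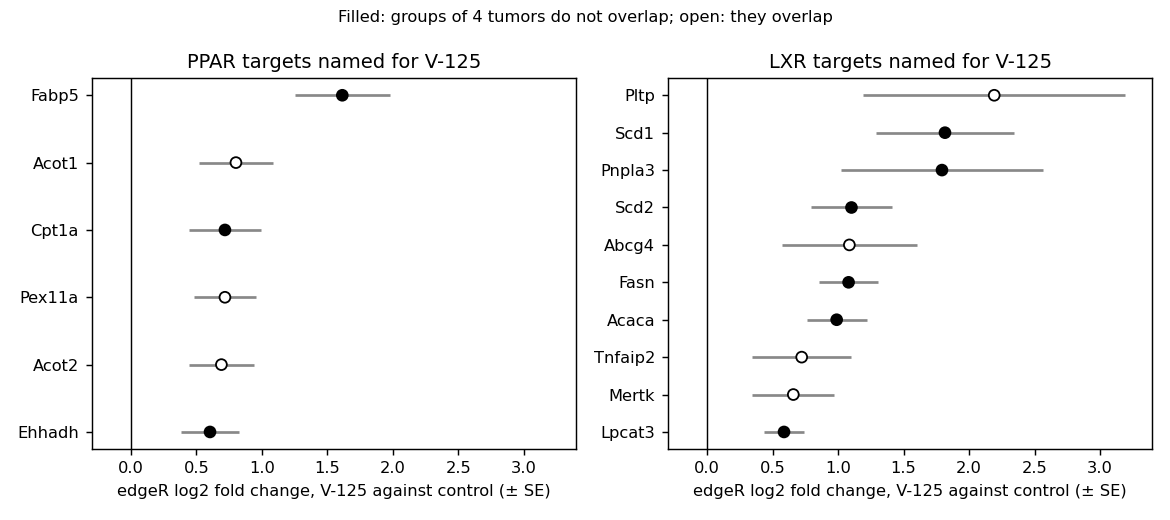
Points give the edgeR log2 fold change of V-125 against control (horizontal axis, with bars for ± 1 SE) of PPAR targets (left) and LXR targets (right) named in the text that were listed and could be fitted. Filled points are genes whose 4 treated and 4 control tumors do not overlap, among them Cpt1a at 0.72 and Lpcat3 at 0.59, and Pltp at 2.19 has the widest bar (SE 0.999).

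Bexarotene listed 10 of the 50 PPAR targets, 8 higher and 2 lower, and 7 of the 34 LXR targets, 5 higher and 2 lower. Of all tested genes 9.36% were listed with a usable adjusted p, and 772 of the 1784 listed genes were higher and 1012 lower. The lists were chosen with these tables known. On the PPAR list, Fabp5 (1073 against 547), Ehhadh (772 against 519) and Pex11a (912 against 628) had higher means than control, as did Plin4, a lipid droplet coat protein, at 52.4 against 11.3 and the pantetheinase Vnn1 at 89.4 against 40.9. Aqp7, the glycerol channel of adipocytes, was at 6.07 with bexarotene and listed at 0 in control. Txnip, a regulator of glucose uptake, was lower like Angptl4, at 10509 against 16601. On the LXR list, Scd1 (84410.4 against 44558), Scd2 (17949 against 10501), Fasn (14129 against 8773) and the elongase Elovl5 (3083 against 2249) had higher means, and Rgs16, a regulator of G protein signaling, had a lower one (99.4 against 164) beside Apoe. The control mean of Scd1 spans tumors from 11716 to 88995, and its bexarotene mean lay below all 4 V-125-treated tumors.

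The apolipoprotein list gave a different picture from the enzymes. Over all genes listed for bexarotene the median log2 ratio was −0.56, which mixes 772 higher and 1012 lower genes. Of 23 apolipoprotein genes, bexarotene listed 5 (21.7%, beside 9.36% of all tested genes), all lower than control, with a median of −0.87. Besides Apoe these were Clu (apolipoprotein J), at 13813 against 23318 normalized counts, and Apol6, Apol9a and Apol9b, with log2 ratios of −1.20, −0.75 and −0.96. V-125 listed Apol9a and Apol9b at mean ratios of 0.599 and 0.592, with overlapping groups, and the near-identical sequences of these neighbours may share reads. Apod and Apoc4, which had higher means with V-125, were not listed for bexarotene. Of the 30 genes in the families of the members, the angiopoietin-like genes Angptl2 (156 against 291) and Angptl7 (0.55 against 6.69) were also lower with bexarotene, the latter at a level of few reads.

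Among 27 genes of RXR and its partner receptors, V-125 listed Rxrg and Nr4a2, and bexarotene listed 6. With a usable adjusted p these were 3.7% and 22.2%, beside 8.95% and 9.36% of all tested genes. Nr4a2, an orphan receptor that pairs with RXR, was at 123, 141, 161 and 177 normalized counts with V-125 against 119, 92.5, 75.9 and 91.3 in control, without overlap, and its bexarotene mean was 184 against 94.1. The vitamin D receptor Vdr (1788 against 3345), the retinoic acid receptors Rarg (782 against 1301) and Rara (253 against 399), the thyroid hormone receptor Thra (522 against 765) and the coactivator Ppargc1b (18.2 against 36) had lower means with bexarotene. Of 23 genes of receptor feedback and lipid uptake, V-125 listed 7 (30.4%, beside 8.95% of all tested genes). Of these 6 were higher, among them Lipe, Mgll, Gpam, Lpin1 and Slc27a4, and Slc27a3 was lower. Mgll, the monoacylglycerol lipase, and Gpam, the first acyltransferase of triglyceride synthesis, did not overlap between groups, at 2230 to 3207 against 1432 to 1789 and at 507 to 564 against 198 to 374. The hormone-sensitive lipase Lipe was likewise apart (454 to 608 against 248 to 400.1), as was the acyl-CoA synthetase Slc27a3 in the other direction (49.1 to 85.4 against 95.04 to 198). Groups were thus apart in 1 of the 2 listed receptors and 4 of the 7 listed feedback and uptake genes, beside 38.6% of all listed genes. Bexarotene listed 4 genes of the feedback and uptake list (17.4%, beside 9.36% of all tested genes), each with a higher mean. Among them were Mgll, Gpam and the triglyceride synthase Dgat2, with log2 ratios of 0.55, 0.63 and 0.64.

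Other gene groups had lower or higher means with bexarotene beside Angptl4, Apoe and Fabp4. For comparison, 9.36% of all tested genes were listed for bexarotene, and 1012 of the 1784 listed genes were lower than control. Of 25 hypoxia-induced genes other than Angptl4, 11 were listed and all were lower, with summed means of 18446 against 30849 normalized counts and log2 ratios from −2.39 (Ndrg1) to −0.61 (Pgk1). V-125 listed 9 of the 26 genes of that list (34.6%, beside 8.95% of all tested genes), 8 lower and 1 (Aldoc) higher, but not Angptl4. Groups were apart in 1 of these 9, beside 38.6% of all genes listed for V-125, of which 817 were higher and 772 lower. Of 16 macrophage markers, 9 were listed for bexarotene beside Apoe, a gene that macrophages also express, and all 9 were lower, with a summed mean of 3290 against 7649 and log2 ratios from −2.32 (Cd14) to −0.66 (Cd68). Luminal epithelium markers were lower too, with 5 of 12 listed and a summed mean of 35732 against 54742. Of 14 adipocyte markers, Fabp4 and Plin4 were listed for bexarotene, and the other 12, among them Adipoq, Plin1, Lep and Cidec, were not, so their levels are not known here. V-125 listed Lipe alone of these 14 (7.14%, beside 8.95% of all tested genes). The part of oxygen supply, macrophages or adipocytes in the member results was not tested.

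**Figure D5:**
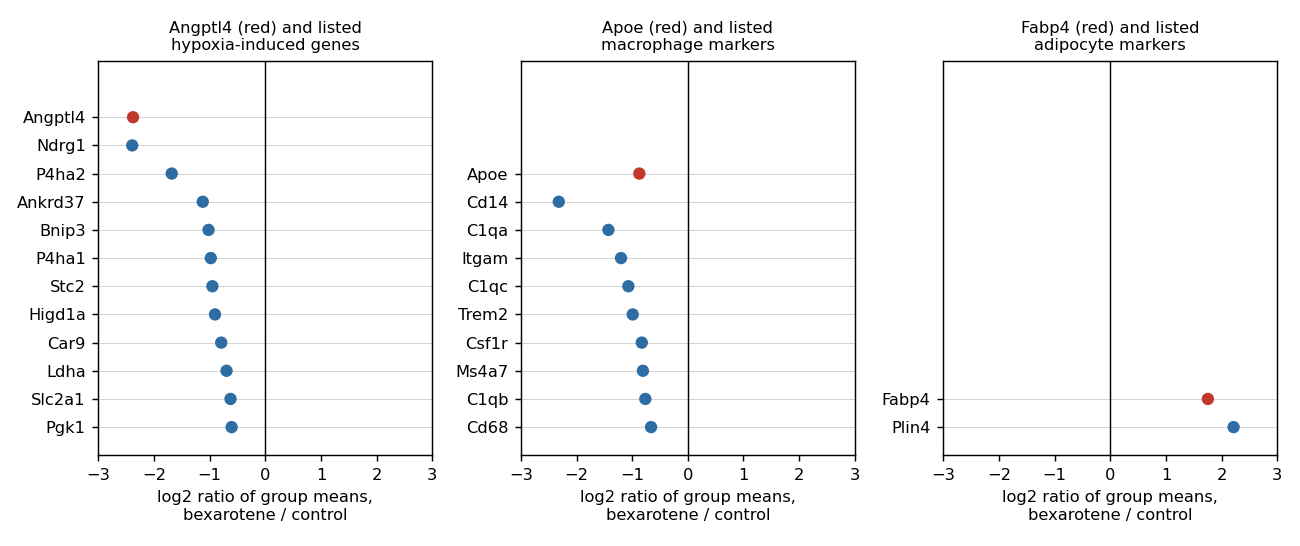
Each panel plots the log2 ratio of bexarotene to control group means of normalized counts (horizontal axis) for 1 member (red) and the listed genes of 1 fixed list (blue), with no error because only group means were used. Angptl4 (−2.38) stands beside 11 hypoxia-induced genes and Apoe (−0.87) beside 9 macrophage markers that are all left of 0, and Fabp4 (1.75) beside Plin4 (2.21), the other listed adipocyte marker.

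By Pearson's r of log2(normalized count + 1) over the 8 tumors, the listed genes most like Cpt1a were C230035I16Rik (0.979), Esm1 (0.966) and Slc7a7 (0.965). Those most like Lpcat3 were Gm12876 (0.975), Lama3 (0.941) and Derl3 (0.935), and those most like Apoc4 were Gpr157 (0.965), Dpp10 (0.959) and Tlr13 (0.951). The tumors share their treatment groups and every one of these genes was listed for differing between them, so the values describe likeness only. Esm1, an endothelial proteoglycan, was at 333 to 414 normalized counts in treated and 128 to 260.1 in control tumors. Gm12876 had at most 11.9 normalized counts in any tumor and no read in 3 of the 4 control tumors.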

How the data were processed

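Poly(A) RNA of 12 tumors was sequenced, and the submitters' processing notes name STAR 2.6.1d, featureCounts 1.5.0-p3 and limma without stating a genome build. For V-125, the authors deposited read counts, normalized counts (a signal, each count divided by 1 size factor per tumor) and FPKM for 8 tumors. For bexarotene they deposited group means of the normalized counts (a signal). Both tables also hold the authors' log2 fold changes, p-values and adjusted p-values, whose values are not reported; the authors deposited only genes with an unadjusted p-value below 0.05 (1589 and 1784), and the relation of p to adjusted p gave 15310 and 18687 tests. The bexarotene table also has a −log10 p-value and a score deposited by the authors, which were not used. Control means of the 445 genes compared were, in the V-125 table, 1.0034 to 1.0079 times those in the bexarotene table.

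Counts of the listed V-125 and control genes were fitted with edgeR 4.0.16 (quasi-likelihood, authors' size factors, filterByExpr, Benjamini-Hochberg over 15310 tests) in R 4.3.3 after testing on simulated data. The spread was estimated from selected genes only. Members were compared with two-sided exact permutation tests, and bexarotene means by ratios without a test. Labels give the groups, and tumors are separate mice. Alternatives were DESeq2 1.42.0, limma-voom 3.58.1, other scaling, filters and adjustment, the replicate block and leaving out each tumor.

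The members and lists were chosen with earlier results of these data known. Genes named are the members, every listed gene of 6 lipid and receptor lists (170 genes), the 3 listed genes most correlated with each member, and up to 4 genes of each marker list. Results for some single genes of these lists are not reported here, and the list counts include them. The genes described beside Apoc4 without V-125 replicate 1 were chosen after their values were seen. Promoter sequences came from RefSeq (GRCm38.p6) and positions from GENCODE M21; the V-125 table gives Lpcat3 and Apoc4 the same positions, and Cpt1a at 3323301 to 3385732.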

Additional observations from a re-analysis of the deposited data

Results flagged for a closer look

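Of 64 groups of 4 tumors examined over 32 lipid and receptor genes, 7 held a tumor whose gap to the nearest other, divided by the range of the group, passed Dixon's 95% critical value. About 5% of groups would pass if values were normally distributed. Read counts need not be, and the genes were selected for differing, so 7 of 64 cannot be set against that share. Among V-125-treated tumors, replicate 1 stood apart in 3 genes, high for Pltp at 982 and Tnfaip2 at 560.0 normalized counts and low for Acaca at 2757. Replicate 2 stood apart for Ucp3 at 86.4 normalized counts. Among control tumors, Apoc4 stood apart at 2.31 normalized counts in replicate 2, Tnfaip2 at 293 in replicate 2 and Apod at 69.2 in replicate 1. For Apoc4 this was the single control tumor with any read, a case that always passes this criterion. The genes on which V-125 replicate 1 was high include Apoc4 at 68.5 normalized counts, which did not pass this criterion.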

How the results depend on the processing

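Of 96 alternative values of the results on the members and the listed genes, 83 kept their direction and their side of the threshold. For a fitted log2 fold change this was an adjusted p of 0.05, and for a difference in mean count an exact p of 0.05. A count of genes could change by at most 1.5 times, a bexarotene ratio by 0.1 in log2, and a difference of log2 means by the larger group SD. Cpt1a and Lpcat3 were not called in the main edgeR fit (adjusted p of 0.764 and 0.526), so keeping their side meant staying uncalled. All 32 alternative log2 fold changes of Cpt1a and Lpcat3 kept their direction. The unadjusted edgeR p of Cpt1a, 0.0258 with all tumors, was 0.0715 without V-125 replicate 2 and 0.0531 without control replicate 4. The number of listed genes called at an adjusted p below 0.05 was 0 by edgeR, 124 by DESeq2 and 120 with edgeR adjusted over the listed genes only, an adjustment over fewer tests; leaving out 1 tumor gave 0 to 1. At an unadjusted p below 0.05 the count was 953, and leaving out 1 tumor gave 625 (without control replicate 2) to 805. Replicate numbers do not pair the tumors, which come from different mice, and deviations of tumors with the same number had correlations of 0.09, −0.05, −0.17 and 0.04. With the replicate number as a block, 0 genes were called and 781 had an unadjusted p below 0.05, and the log2 fold change was 0.79 for Cpt1a and 0.58 for Lpcat3. Leaving out 1 tumor, the difference in mean normalized count was 298 to 466 for Cpt1a, with the exact p at 0.0571 without any 1 V-125-treated tumor, and 490.3 to 711 for Lpcat3, with the exact p at 0.0571 without any 1 control tumor, although the groups did not overlap. For Apoc4 it was 8.78 (without V-125 replicate 1) to 31.6 (without V-125 replicate 4). The exact test with 4 against 3 tumors cannot go below 0.0286. Depth limits Apoc4, Rxrg, Ucp3 and Plin5, and the lack of per-tumor values limits every bexarotene ratio.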
